A study of Homo sapiens with 10 samples.

Results

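PTK2B is a non-receptor tyrosine kinase of the focal adhesion kinase family, and 9 further genes of focal adhesions were followed beside it in HEK293T cells that overexpressed the kinases BRSK1 or BRSK2. The 10 genes were picked by name out of the 58676 in the count tables: PTK2B, its paralogue PTK2, the Src family kinases SRC and YES1, the adaptors PXN and BCAR1, the linker and LIM proteins TLN1, VCL and ZYX, and the matrix ligand TNC. Each name matched 1 gene, and 10 of 10 passed the filter on low counts that left 16936 genes for testing. PTK2B was picked because it was high with BRSK1 in these same libraries. Its values against the controls and between the kinases are therefore given as a description, with no test, and only the other 9 genes are counted there. TNC ended as the 1 of those 9 that passed the test with either kinase.

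Focal adhesions are the sites where integrins bind the extracellular matrix outside the cell and the actin cytoskeleton inside it. Talin binds integrin tails and recruits vinculin under tension, zyxin gathers where actin is under load, and paxillin and p130Cas are scaffolds that the tyrosine kinases phosphorylate. PTK2 (focal adhesion kinase) is activated by integrin engagement and pairs with Src. PTK2B (also called PYK2) has the same domain order, responds to calcium as well as to integrins, and is best known from brain and blood cells.

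HEK293T is a transformed human embryonic kidney line with neuronal features. The BRSK1 group held 3 libraries from cells overexpressing BRSK1 and the BRSK2 group 3 libraries from cells overexpressing BRSK2, both serine/threonine kinases related to AMPK and known from neuronal polarity. The controls were 2 libraries with the red fluorescent protein hcRED (replicates 1 and 3) and 2 libraries labelled Mock (replicates 2 and 3). BRSK1, BRSK2 and hcRED were expressed for 24 h, while the sources used here do not give the time for Mock or the means of delivery. No label ties the replicates to separate cultures. The p-values thus refer to variation among these libraries, and part of it may be technical.

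Total counts ran from 16516116 to 24304302 per library. All 7 markers of the HEK293 line (PAX2, LHX1, NEFL, NEFM, VIM, KRT8 and KRT18) had counts. So did the 4 endothelial markers, so the presence of counts alone does not identify the line. Of the 6 blood cell markers, PTPRC was at 0 counts in all 10 libraries, and the summed list ran from 3.72 to 5.53 CPM (counts scaled to a fixed library total) over all libraries. The 4 endothelial markers summed to at most 1.06 CPM. The 7 HEK293 markers summed to 379 to 392 CPM with hcRED and to 449 to 487 CPM in the other groups. BRSK1 replicate 1 stood apart in squamous epithelial keratins, with KRT5 at 29.3 and KRT14 at 32.7 CPM, while the other 9 libraries reached at most 5.26 and 9.35. TP63, the third gene of that list, was at 0.05 CPM there and at 6 counts over all 10 libraries together. In bulk RNA a change in the share of cells of a type and a change in RNA per cell cannot be told apart.

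PTK2B (ENSG00000120899; hg38 chromosome 8, plus strand, 27311482 to 27459391; protein coding) was higher in every kinase library than in any control library. Counts were scaled to CPM with TMM factors unless stated otherwise; these factors correct for the make-up of each library. PTK2B stood at 5.97, 9.03 and 8.38 CPM in BRSK1 replicates 1, 2 and 3. It stood at 4.16, 6.30 and 8.84 CPM in BRSK2 replicates 1, 2 and 3. The controls lay lower and closer together, at 3.53 and 3.57 CPM with hcRED and 3.03 and 2.87 CPM in Mock. The group means were 7.79 ± 1.62 (SD, n = 3), 6.43 ± 2.34 (n = 3), 3.55 ± 0.03 (n = 2) and 2.95 ± 0.11 (n = 2). The depth behind these values is small, at 76 to 204 counts per kinase library and 58 to 75 per control library. The 95% counting interval of BRSK2 replicate 1 (3.28 to 5.21 CPM) overlapped that of hcRED replicate 1 (2.78 to 4.43 CPM). Such intervals cover counting error only.

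Against the mean of hcRED and Mock, the fitted log2 difference of PTK2B was 1.27 ± 0.20 (SE; 95% interval 0.85 to 1.69) with BRSK1 and 0.98 ± 0.21 (0.54 to 1.42) with BRSK2, or 2.41-fold and 1.97-fold. Of all tested genes, 9.93% had every BRSK1 library above every control and 9.09% had every BRSK2 library above them; PTK2B was chosen on the first of these, and nothing is read from it. These contrasts share their 4 control libraries. Without BRSK1 replicate 1, the library with the high keratins, the BRSK1 difference was 1.43. The BRSK2 difference moved between 0.70 without replicate 3 and 1.21 without replicate 1. Between the kinases PTK2B was lower with BRSK2 by a log2 difference of -0.29 ± 0.21 (95% interval -0.72 to 0.14), and the libraries overlapped. The 2 control groups did not choose the gene and could be tested: hcRED minus Mock was 0.27 ± 0.29 (edgeR's quasi-likelihood test, adjusted p = 0.837). In the authors' deposited tables of differential expression PTK2B is the 1 gene of the 10 that is listed, with a log2 fold change of 1.25 for BRSK1 and 0.91 for BRSK2.

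The paralogue PTK2 (ENSG00000169398; chromosome 8, minus strand, 140657900 to 141002216) stayed between 73.6 and 83.3 CPM in all 10 libraries. Its values were 73.6, 80.4 and 78.0 CPM with BRSK1, 78.2, 75.5 and 76.8 with BRSK2, 79.0 and 76.5 with hcRED, and 83.3 and 80.9 in Mock. The kinase and control ranges overlapped through hcRED, while both Mock libraries lay above all others. Both hcRED libraries were below both Mock libraries in 20.3% of all genes. Its log2 difference was -0.05 ± 0.06 with BRSK1 (95% interval -0.17 to 0.08, adjusted p = 0.697) and -0.06 ± 0.06 with BRSK2 (-0.18 to 0.07, adjusted p = 0.627). PTK2B reads amounted to 8.10%, 11.2% and 10.8% of PTK2 reads in the BRSK1 libraries and 5.33%, 8.34% and 11.5% in the BRSK2 libraries. The same ratio was 4.47% and 4.67% with hcRED and 3.64% and 3.55% in Mock. It needs no scaling between libraries, and every kinase library lay above every control library on it. The ratio holds the same PTK2B counts on which the gene was chosen, so this order is no separate result.

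The transcripts of the overexpressed kinases differed between libraries of 1 group, and their values are set beside PTK2B. Of total counts, BRSK1 took 47151, 65221 and 69608 CPM in BRSK1 replicates 1, 2 and 3. BRSK2 took 69928, 90787 and 103644 in BRSK2 replicates 1, 2 and 3. Replicate 1 was the lowest of its group in both the introduced kinase and PTK2B, in both groups. The part of the kinase level in the PTK2B values was not tested.

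**Figure D1:**
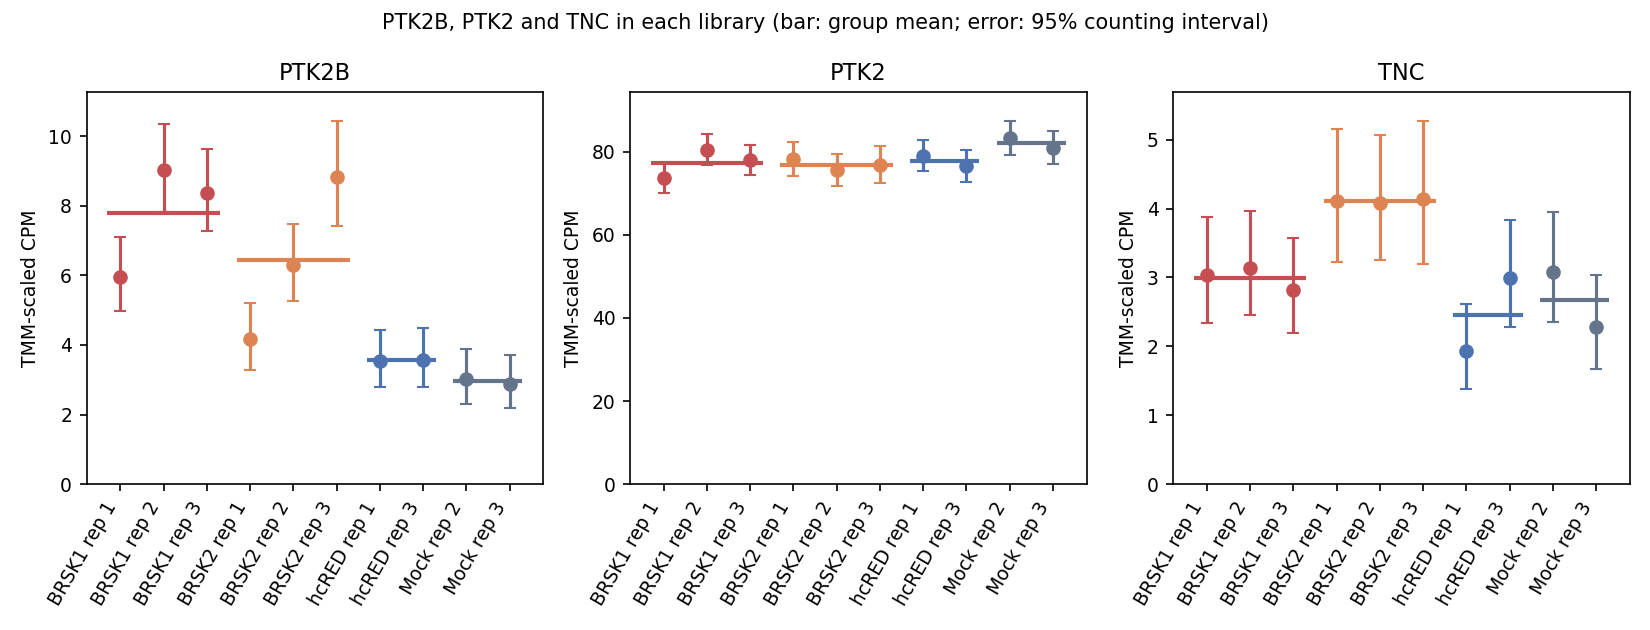
TMM-scaled CPM (y axis, from 0, with its own range in each panel) of PTK2B, PTK2 and TNC in each library (x axis); points carry 95% counting intervals and horizontal bars are group means. PTK2B lies at 4.16 CPM or more in the 6 kinase libraries and at 3.57 or less in the 4 control libraries. PTK2 overlaps between the kinase and hcRED libraries and is highest in Mock, and TNC is highest in the 3 BRSK2 libraries.

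TNC encodes tenascin-C, a secreted matrix glycoprotein that binds integrins and is known from development and wounds (ENSG00000041982; chromosome 9, minus strand, 115019578 to 115118257). As the 1 tested gene of the set that passed, it is shown with the stretch just upstream of all its annotated starts, taken from the RefSeq promoter table (GRCh38.p14) at chr9:115118258-115118407 on the minus strand. The capitals mark the GC box GGGCGG.
TNC: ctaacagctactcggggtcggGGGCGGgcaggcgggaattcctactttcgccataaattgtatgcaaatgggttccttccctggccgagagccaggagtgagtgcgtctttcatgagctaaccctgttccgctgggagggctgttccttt
The GC box, a binding motif of Sp1, was in 42.6% of all 35116 promoter windows of 250 bases (either strand) and in 10 of the 12 windows that the table holds for 7 of the 10 genes. BCAR1 and PXN have more than 1 window each, so the 12 windows are not separate genes. PTK2B, PTK2 and SRC have no window, and the motif search does not cover them. The TNC window held none of the other motifs searched. Those were the SRF CArG box, the TEAD motif GGAATG, the AP-1 motif TGANTCA, the CRE core TGACG and the NRF2 core TGACNNNGC, of which the last pair can overlap. In the other windows GGAATG was found for PXN and VCL, TGANTCA for BCAR1, TGACG for BCAR1 and YES1, and TGACNNNGC for PXN, against 11.9%, 6.57%, 21.2% and 10.9% of all windows. The CArG box was in 0 of the 12 windows and in 1.16% of all. A match is a run of letters in these windows and no evidence of binding.

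TNC stood at 4.11, 4.08 and 4.13 CPM in BRSK2 replicates 1, 2 and 3. BRSK1 gave 3.03, 3.14 and 2.82 CPM, hcRED 1.93 and 2.99, and Mock 3.08 and 2.28. The 3 BRSK2 libraries were above the other 7, while BRSK1 overlapped the controls. Of all tested genes, 9.09% had every BRSK2 library above every control, and 8.65% had every BRSK2 library above every BRSK1 library. Counts were between 41 and 83 per library, the fewest of the 10 genes in every library except Mock replicate 2.

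TNC rose 1.60-fold with BRSK2 (log2 difference 0.68 ± 0.20 SE, 95% interval 0.26 to 1.09, edgeR adjusted p = 0.0389, higher in 3 of 3 libraries). With BRSK1 the difference was 0.23 ± 0.20 (-0.19 to 0.64, adjusted p = 0.561). The test of BRSK2 against BRSK1 gave 0.45 ± 0.21 for TNC (adjusted p = 0.379), so the effects of the kinases were not shown to differ. The BRSK2 value was close to the threshold: it stayed positive in 24 of 24 alternative settings (0.54 to 0.85) and passed in 15 (adjusted p from 0.0285 to 0.170). TNC did not pass when any 1 of the BRSK2 libraries was left out (adjusted p = 0.0502, 0.110 and 0.137 for replicates 1, 2 and 3), nor with hcRED replicate 1 (0.170) or Mock replicate 3 (0.141) left out. It also missed with library totals in place of TMM (0.0503), a scaling that moved the median of all genes by -0.10 in this comparison.

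Of the 9 tested genes, 0 passed with BRSK1 at an adjusted p under 0.05, where 6.43% of all tested genes passed (3.77% higher and 2.66% lower). DESeq2 and limma-voom also called 0 of the 9, the count without BRSK1 replicate 1 was 0 as well, and 3 had an unadjusted p under 0.05, as did 21.8% of all genes. With BRSK2, 1 of the 9 passed (TNC), against 7.82% of all genes (4.77% higher and 3.05% lower), and DESeq2 and limma-voom each called 1. Their median log2 difference was -0.06 with BRSK1 and 0.05 with BRSK2, beside 0.00 for all genes in both. The median absolute difference was 0.09 and 0.08, beside 0.14 and 0.15 over all genes. The shares are those of a handful of genes and stand near the background.

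**Figure D2:**
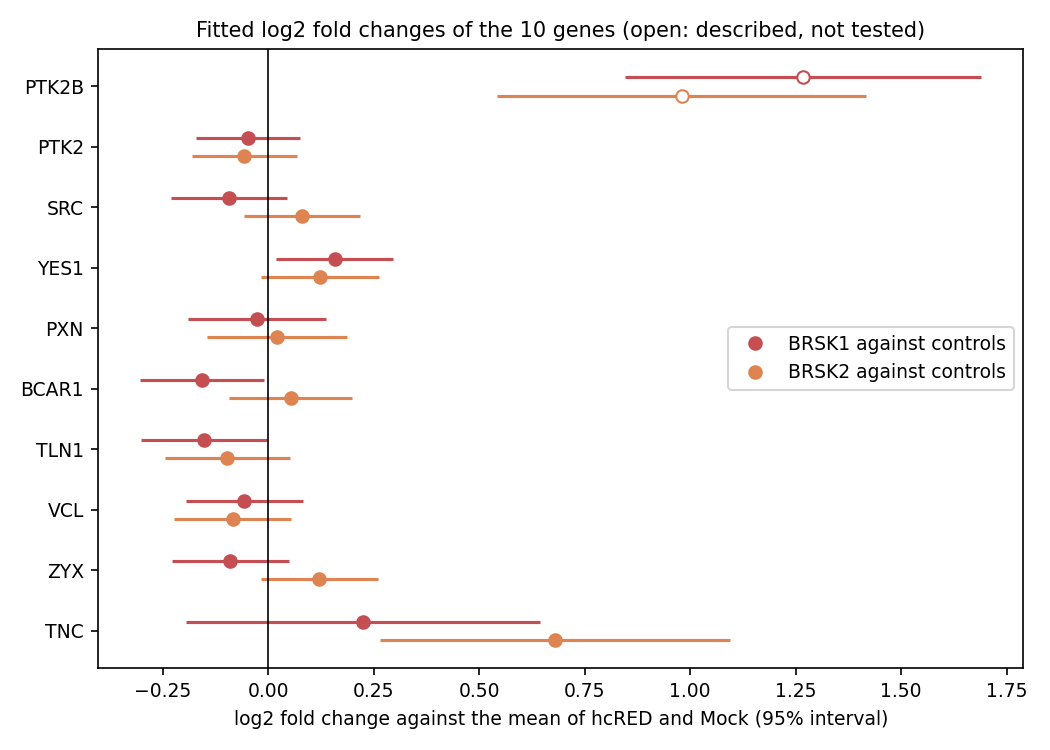
Fitted log2 difference from the mean of hcRED and Mock (x axis) for each of the 10 genes (y axis) with BRSK1 and BRSK2; bars are 95% intervals, and open symbols mark PTK2B, which is described and not tested. PTK2B lies at 1.27 and 0.98 and TNC at 0.68 with BRSK2, while every other value lies between -0.16 and 0.23.

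SRC (ENSG00000197122; chromosome 20, plus strand, 37344685 to 37406050) is the kinase that docks on active PTK2 and PTK2B. It stood at 53.6, 52.0 and 55.5 CPM with BRSK1, 62.9, 61.7 and 56.9 with BRSK2, 59.3 and 54.0 with hcRED, and 57.0 and 58.8 in Mock. The controls overlapped both kinases. The log2 difference was -0.09 ± 0.07 with BRSK1 (adjusted p = 0.444) and 0.08 ± 0.07 with BRSK2 (adjusted p = 0.506). Each BRSK2 library was above each BRSK1 library, by 0.17 ± 0.07 in the direct test (adjusted p = 0.307).

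YES1 (ENSG00000176105; chromosome 18, minus strand, 721588 to 812546) is a widely expressed Src family kinase. Its 3 BRSK1 libraries (61.0, 64.2 and 56.8 CPM) were above the 4 controls (54.6 and 54.4 with hcRED, 55.5 and 53.1 in Mock). As given above, 9.93% of all tested genes had that order. BRSK2 gave 55.4, 60.5 and 61.9 CPM, with replicate 1 inside the control range. The log2 difference was 0.16 ± 0.07 with BRSK1 (adjusted p = 0.167) and 0.12 ± 0.07 with BRSK2 (adjusted p = 0.284), and neither passed.

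The adaptor PXN (paxillin; ENSG00000089159; chromosome 12, minus strand, 120210439 to 120265771) ranged from 34.1 to 40.1 CPM, and all groups overlapped. Its log2 difference was -0.03 ± 0.08 with BRSK1 (adjusted p = 0.886) and 0.02 ± 0.08 with BRSK2 (adjusted p = 0.911). PXN shares 918 exonic bases with the antisense gene PXN-AS1, whose median count was 46.5 beside 774.5 for PXN. The strand setting of the counting was not given in the sources used here, so reads from such a pair cannot be told apart.

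BCAR1 (p130Cas; ENSG00000050820; chromosome 16, minus strand, 75228187 to 75268053) is a docking protein phosphorylated by Src at adhesions. BRSK1 libraries stood at 79.6, 73.4 and 88.5 CPM and BRSK2 libraries at 98.3, 94.0 and 87.0, while the controls stood at 87.1, 98.2, 90.8 and 83.2. The BRSK1 libraries reached lower than the controls and overlapped them. The log2 difference was -0.16 ± 0.07 with BRSK1 (adjusted p = 0.193) and 0.05 ± 0.07 with BRSK2 (adjusted p = 0.707), and 0.21 ± 0.08 for BRSK2 against BRSK1 (adjusted p = 0.242).

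TLN1 (talin 1; ENSG00000137076; chromosome 9, minus strand, 35696948 to 35732395) was lower with hcRED than in Mock, short of the test. It stood at 349 and 339 CPM with hcRED and at 380 and 437 in Mock, with both hcRED libraries below both Mock libraries, as for 20.3% of all genes. That difference was -0.25 ± 0.09 (adjusted p = 0.427). BRSK1 gave 358, 321 and 334 CPM, and BRSK2 gave 401, 323 and 329, with replicate 1 the highest. Against both controls TLN1 was at -0.15 ± 0.07 with BRSK1 (adjusted p = 0.218) and -0.10 ± 0.07 with BRSK2 (adjusted p = 0.459). Leaving out BRSK2 replicate 1 moved TLN1 to -0.20 with BRSK2, past the threshold (adjusted p = 0.0290). Against hcRED alone its direction turned, to 0.03.

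VCL (vinculin; ENSG00000035403; chromosome 10, plus strand, 73995193 to 74121363) stood between 149 and 187 CPM, with the lowest value in BRSK1 replicate 3 and the highest in Mock replicate 3. Its log2 difference was -0.06 ± 0.07 with BRSK1 (adjusted p = 0.673) and -0.08 ± 0.07 with BRSK2 (adjusted p = 0.496). VCL shares 1109 exonic bases with AP3M1 on the other strand, which had a median count of 1735.5 beside 3528.5 for VCL.

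ZYX (zyxin; ENSG00000159840; chromosome 7, plus strand, 143381080 to 143391111) stood at 102, 99.0 and 114 CPM with BRSK1 and 118, 125 and 122 with BRSK2. The controls, at 112, 116, 120 and 99.3 CPM, overlapped both. ZYX was at -0.09 ± 0.07 with BRSK1 (adjusted p = 0.468) and 0.12 ± 0.07 with BRSK2 (adjusted p = 0.289). Each BRSK2 library was above each BRSK1 library, by 0.21 ± 0.07 (adjusted p = 0.208).

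Tested directly, BRSK2 against BRSK1 called 0 of the 9 genes, as did DESeq2 and limma-voom, where 0.348% of all genes passed. The 4 with an unadjusted p under 0.05 (SRC, BCAR1, ZYX and TNC) were all higher with BRSK2, and 12.4% of all genes were under that p. Of the 9 genes, 3 (SRC, ZYX and TNC) had all BRSK2 libraries above all BRSK1 libraries, as did 8.65% of all genes. PTK2 and VCL showed no such order, with log2 differences of -0.01 ± 0.06 and -0.03 ± 0.07. Between hcRED and Mock 0 of the 10 passed in edgeR, DESeq2 or limma-voom, where 0.0295% of all genes passed, and 1 (TLN1, lower) had an unadjusted p under 0.05, beside 8.95% of all genes.

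**Figure D3:**
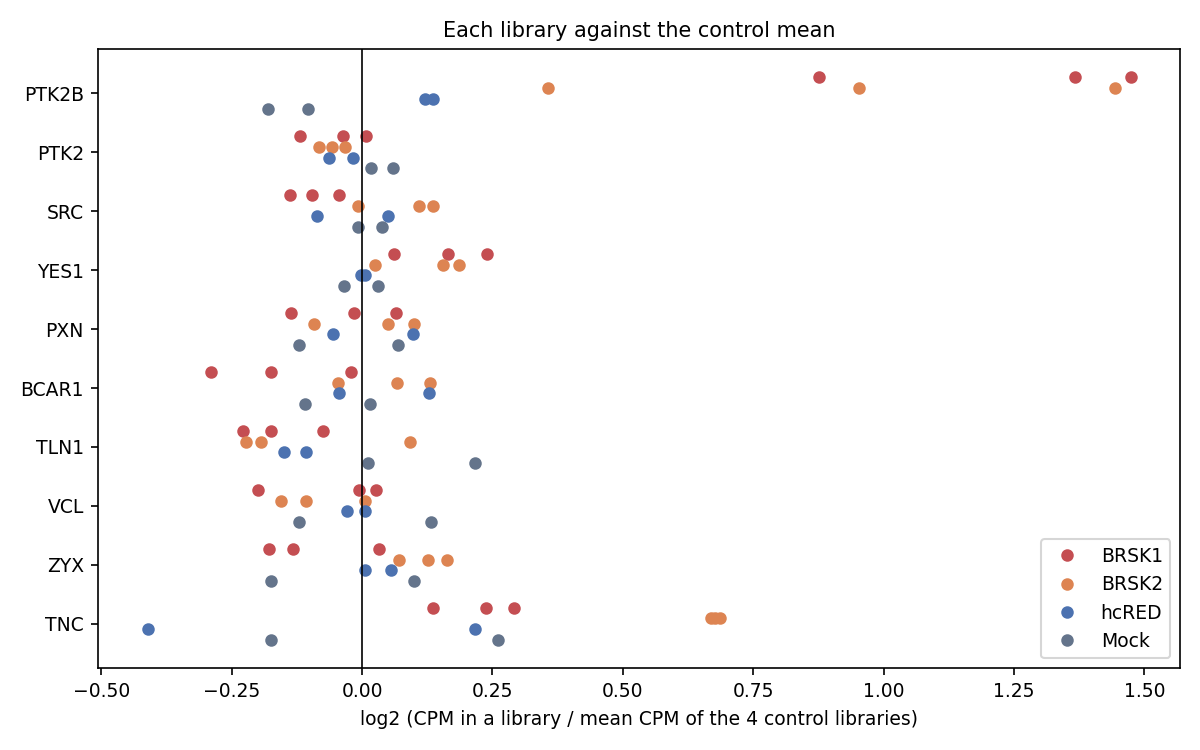
Log2 ratio of the CPM in each library to the mean CPM of the 4 control libraries (x axis) for each gene (y axis), 1 point per library coloured by group. The 6 kinase libraries of PTK2B and the 3 BRSK2 libraries of TNC lie to the right of all controls, and the YES1 points of BRSK1 lie just above the controls.

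Levels can be compared between genes only per length. Per kilobase of the longest transcript, the mean over the 10 libraries was highest for ZYX (45.3 ± 3.84 CPM per kb, SD) and TLN1 (40.5 ± 4.31), whose ranges overlapped. VCL (20.8), BCAR1 (18.9) and PTK2 (15.8) followed, each overlapping the next in its range. YES1 (12.4) and SRC (12.3) overlapped each other and lay below PTK2, and PXN lay below them at 6.86. PTK2B (1.18 ± 0.52) and TNC (0.41 ± 0.10) were the lowest and did not overlap each other or PXN. PTK2B at its highest, in BRSK1 replicate 2, reached 1.91 CPM per kb, while PTK2 at its lowest stood at 14.9.

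With the union of all exons as the length the order of the upper genes changed. TLN1 (35.4 CPM per kb) then came before ZYX (32.4), and PTK2, whose exon union is far longer than any transcript, fell to the seventh place at 5.69. PTK2B (0.702) and TNC (0.328) remained the last, and their ranges then overlapped.

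**Figure D4:**
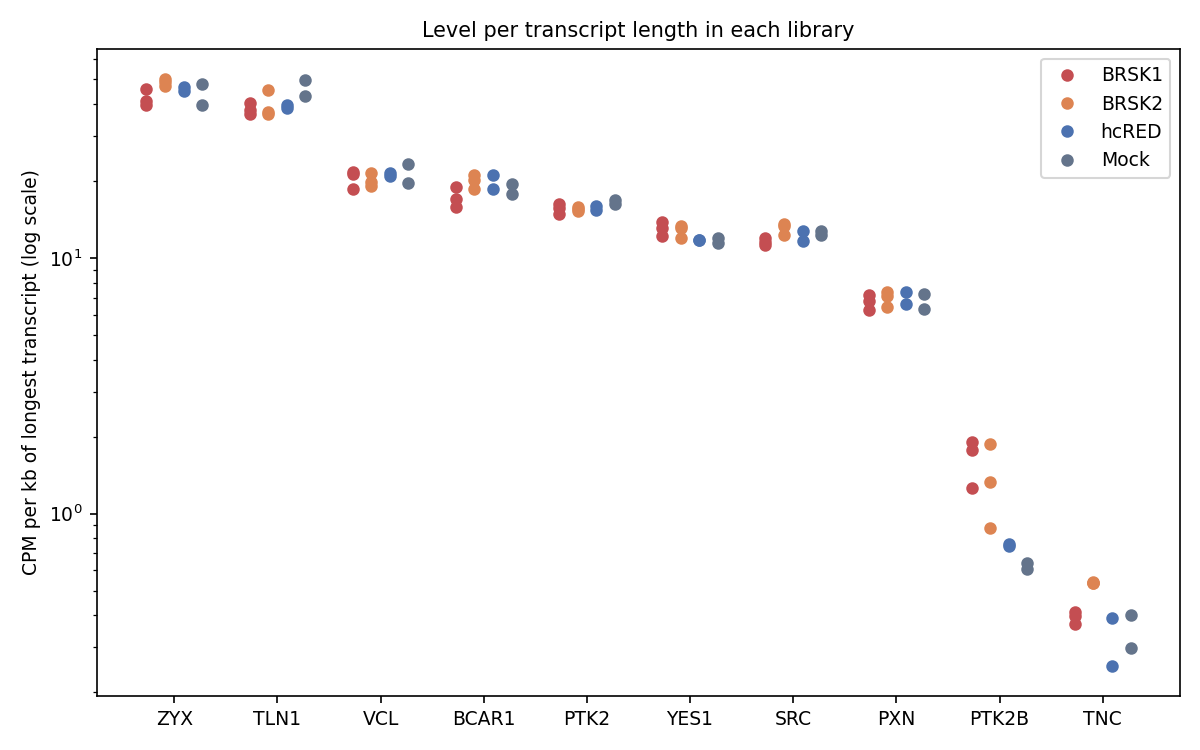
CPM per kilobase of the longest transcript (y axis, log scale) of the 10 genes (x axis, in order of their mean), 1 point per library coloured by group. PTK2B and TNC lie well below the other 8 genes in all libraries.

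The genes whose pattern over the 10 libraries was most like that of PTK2B were ranked by Pearson's r of log2 CPM among 14045 genes with a mean of at least 1 CPM. Among the first 6 were the transcription factor ZIC5 (r = 0.975), PAN2, a subunit of a poly(A) nuclease (0.969), the helicase EIF4A2 (0.965), the thioredoxin-binding protein TXNIP (0.964) and FAM57B (0.963). These were higher with both kinases, with log2 differences from 0.34 to 1.45 with BRSK1 and from 0.25 to 1.05 with BRSK2. That direction follows from ranking by likeness to PTK2B, itself chosen as high with BRSK1, and is no separate result. The measure takes in the group differences and shares the libraries and their depth, and ranking by Spearman's coefficient kept 2 of the 6, ZIC5 among them.

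Of the other 9 focal adhesion genes, YES1 had the highest r with PTK2B (0.85, rank 351), and TNC followed at 0.47. PXN (0.10) and ZYX (0.02) were near 0. SRC (-0.36), BCAR1 (-0.40), PTK2 (-0.41), VCL (-0.53) and TLN1 (-0.73) had a negative r, at ranks from 9842 (SRC) to 12898 (TLN1) of 14045. No r was tested, and each takes in the group difference on which PTK2B was chosen.

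The rest of the pathway was covered by 7 lists with 187 further genes, of which 167 were tested. With BRSK1, 7 rose and 4 fell, or 6.59% of the list genes beside 6.43% of all tested genes. With BRSK2, 13 rose and 4 fell, or 10.2% beside 7.82%. The direct test between the kinases called 0 of the 167 (22 had an unadjusted p under 0.05, as did 12.4% of all tested genes), and hcRED against Mock called 0 (21 with an unadjusted p under 0.05, where 8.95% of all tested genes had one).

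Integrins, the matrix receptors, gave 0 calls among 20 tested genes with either kinase, with medians of 0.00 (BRSK1) and -0.03 (BRSK2). ITGB1, the common beta subunit, came nearest with BRSK1 at 0.20 ± 0.06 (adjusted p = 0.0543). The Src family and its regulators also gave 0 calls, among 8 tested genes, with medians of -0.08 and -0.02.

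Among 33 matrix ligands 1 fell with BRSK1, and 2 rose and 1 fell with BRSK2, with a median of 0.07 in both. THBS3, a thrombospondin, stood at 6.41, 7.97 and 7.25 CPM in the BRSK2 libraries beside 3.06 and 4.50 with hcRED and 4.69 and 2.92 in Mock. It rose by 0.93 ± 0.18 on the log2 scale (adjusted p = 0.0023) and passed in 24 of 24 alternative settings. LAMA3, the laminin alpha-3 chain, rose with BRSK2 by 0.42 ± 0.09 (adjusted p = 0.0046) and also passed in 24 of 24. With BRSK1, THBS3 was at 0.55 ± 0.18 (adjusted p = 0.066) and LAMA3 at 0.28 ± 0.09 (adjusted p = 0.0546). The direct test between the kinases did not pass for either (adjusted p = 0.417 and 0.573), so their effects were not shown to differ. NID2, a basement membrane nidogen, was lower with both kinases, at -0.44 ± 0.10 with BRSK1 (adjusted p = 0.0119) and -0.38 ± 0.10 with BRSK2 (adjusted p = 0.0245).

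Of 39 linkers and LIM proteins, 2 rose and 1 fell with BRSK1, and 2 rose and 2 fell with BRSK2, with a median of -0.02 in both. LASP1, an actin-binding LIM protein, fell with BRSK1 (-0.35 ± 0.08) and BRSK2 (-0.28 ± 0.08). TES, a LIM partner of zyxin, and KANK3 rose with BRSK1, by 0.35 ± 0.09 and 0.57 ± 0.17, and passed in 18 and 14 of 24 settings. TES in BRSK1 replicate 1 (33.8 CPM) was below hcRED replicate 3 (35.4), and against hcRED alone TES was at 0.18 (adjusted p = 0.458). KANK3 did not pass with limma-voom, with library totals, or with BRSK1 replicate 1 or 3 left out. WTIP (0.58 ± 0.11) and TRIP6 (0.28 ± 0.07), both LIM proteins of the zyxin family, rose with BRSK2, and VASP, an actin polymerase that binds zyxin, fell (-0.33 ± 0.08). VASP stood at 47.0 and 51.2 CPM with hcRED and at 42.3 and 35.8 in Mock, the last below BRSK2 replicate 2 (36.3). Against Mock alone VASP was at -0.16 with BRSK2 and did not pass.

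Of 33 adaptors and signalling partners, 1 fell with BRSK1 and 4 rose and 1 fell with BRSK2, with medians of 0.03 and 0.05. The list holds the 3 PITPNM genes, whose products are also known as Nir proteins and bind PTK2B. With BRSK2 all 3 rose: PITPNM1 by 0.40 ± 0.08, PITPNM2 by 0.46 ± 0.12 and PITPNM3 by 0.48 ± 0.13 (adjusted p = 0.0027, 0.0233 and 0.0227). PITPNM1 passed in 24 of 24 alternative settings, and PITPNM2 and PITPNM3 in 18 each. Neither of the last pair passed against hcRED alone, and PITPNM3 did not pass with any 1 BRSK2 library left out. PITPNM1 stood at 58.7, 51.5 and 56.7 CPM in the BRSK2 libraries, above the controls (41.5, 38.4, 44.0 and 45.3), and at 44.7, 37.8 and 47.5 with BRSK1. With BRSK1 the 3 genes were at 0.04, 0.37 and 0.35, none past the test, and the direct test between the kinases missed for PITPNM1 (adjusted p = 0.062).

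SH2D3C, an adaptor that binds BCAR1, rose with BRSK2 by 1.56 ± 0.34, from 0.612 to 1.41 CPM in the controls to 2.08, 2.21 and 4.07. CRK, which docks on phosphorylated paxillin and p130Cas, fell with BRSK2 by 0.19 on the log2 scale. ARHGAP26, a PTK2-binding GTPase activator, was lower with BRSK1 at -0.46 ± 0.11.

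Of 16 targets of SRF and its cofactor MRTF, 4 rose and 1 fell with BRSK1 and 4 rose and 0 fell with BRSK2, with medians of 0.11 and 0.05. Over all tested genes, 6.43% passed with BRSK1 and 7.82% with BRSK2. Against hcRED alone, 0 genes of any list passed with BRSK1. CCN1 (CYR61 in the files), a matricellular ligand of integrins, rose with BRSK1 by 0.62 ± 0.13 and with BRSK2 by 0.59 ± 0.13. CCN2 (CTGF) rose by 1.00 ± 0.29 and 0.95 ± 0.29, but passed in only 14 and 7 of 24 alternative settings, and neither value passed in DESeq2 or limma-voom. The smooth muscle actin ACTA2 rose by 1.09 ± 0.32 and 1.28 ± 0.32, with 1.14, 1.59 and 1.62 CPM in the BRSK1 and 1.31, 1.92 and 1.72 in the BRSK2 libraries. Its controls differed, at 1.13 and 1.32 CPM with hcRED and 0.353 and 0.396 in Mock. Against hcRED alone ACTA2 was at 0.24 with BRSK1 (adjusted p = 0.818) and 0.43 with BRSK2 (adjusted p = 0.585), and it passed in 10 and 19 of 24 settings. CCN2 and ACTA2 stood at 2.46 CPM or less in every library. CCN1 and CCN2 are also targets of YAP and TEAD. TPM2, a tropomyosin, rose with BRSK1 (0.42 ± 0.12), SRF itself with BRSK2 (0.18 ± 0.05), and the calponin CNN2 fell with BRSK1 (-0.32 ± 0.08).

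Many of these list calls hung on single libraries or on the choice of control. With BRSK1, CCN1 passed in 23 of 24 settings, LASP1 in 22, ARHGAP26 in 21, NID2 and CNN2 in 20 and TPM2 in 15. With BRSK2, WTIP and SH2D3C passed in 23, VASP and CCN1 in 22, NID2 in 19, LASP1 and TRIP6 in 18, CRK in 15 and SRF in 13. The 7 higher and 4 lower calls with BRSK1 became 1 and 1 once BRSK1 replicate 3 was left out, 4 and 2 for BRSK1 replicate 2, 1 and 2 for hcRED replicate 1, 3 and 3 for hcRED replicate 3, 1 and 5 for Mock replicate 3, and 15 and 12 for BRSK2 replicate 1. Against hcRED alone they were 0 and 0. The 13 higher and 4 lower calls with BRSK2 became 6 and 0 once BRSK2 replicate 3 was left out, 6 and 1 for BRSK2 replicate 2, 11 and 21 for BRSK2 replicate 1, 7 and 1 for hcRED replicate 1, and 9 and 2 for Mock replicate 3. Against hcRED alone they were 6 and 1. With library totals in place of TMM, BRSK2 gave 11 higher and 32 lower.

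**Figure D5:**
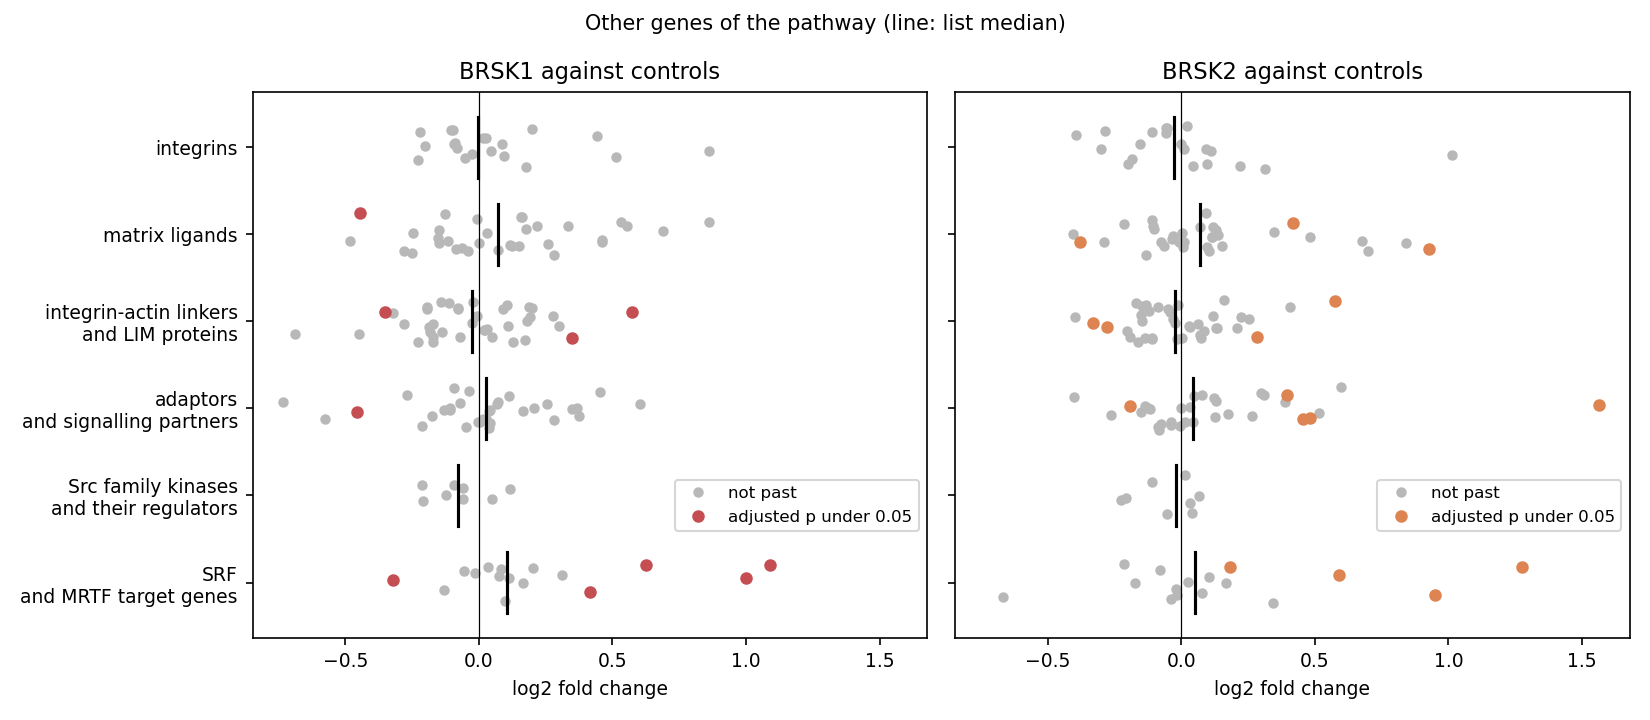
Log2 difference from the controls (x axis) of each tested gene in 6 of the 7 lists of the pathway (y axis; scatter within a list is random) with BRSK1 (left) and BRSK2 (right); coloured points passed an adjusted p under 0.05 and vertical bars are list medians. Calls run both ways in linkers and SRF targets with BRSK1 and in matrix ligands, linkers and adaptors with BRSK2, and the medians lie between -0.08 and 0.11.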

How the data were processed

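RNA of HEK293T cells was sequenced, with 3 µg sent per sample per the labels. The authors deposited 1 table of raw counts for each kinase, with the same 4 control libraries in both (0 genes differed), and both were merged by gene ID. The submitters' processing notes name STAR, edgeR, limma and hg38, while the sources used here name no read counter, strand setting or annotation. The authors also deposited log2 CPM values, used only as a check, and tables with log2 fold changes, p-values and limma's scores, from which only the fold changes of PTK2B are quoted and the scores were not used.

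Counts were tested with edgeR 4.0.16 in R 4.3.3 (TMM, filterByExpr with a minimum count of 10 and total of 15, robust quasi-likelihood F test) in 1 model of 10 libraries with 4 group means. Each kinase was compared with the mean of hcRED and Mock, and Benjamini-Hochberg adjustment ran over 16936 genes with a threshold of 0.05. The SE is the absolute log2 difference divided by the square root of F. Group means are given ± SD. The steps were checked on simulated counts, with changes placed only in genes of a higher mean CPM than TNC. That check therefore does not cover a change at the level of TNC. Alternatives covered the scaling, filter, tool (DESeq2 1.42.0, limma-voom 3.58.1), block, controls and each library left out.

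The genes, lists and tests were chosen with earlier results of these data known. Named list genes are up to 4 per list with the smallest p for each kinase, and the genes most like PTK2B come from the 6 with the highest r. A few items, among them 1 list, are not reported here. Their alternatives were added after the data were seen. Transcript lengths and overlaps come from GENCODE 29.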

Additional observations from a re-analysis of the deposited data

How the results depend on the processing

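PTK2B lay above the controls in 24 of 24 alternatives with each kinase, at 1.13 to 1.43 (log2) with BRSK1 and 0.70 to 1.21 with BRSK2. These fits reuse the libraries on which PTK2B was chosen, so they describe its spread and test nothing. The count of focal adhesion genes called with BRSK2 fell from 1 to 0 with library totals alone, with only the groups compared, and with hcRED alone or Mock alone as the control. Leaving out 1 library at a time gave 0 to 1 calls with BRSK2, with 0 without BRSK2 replicate 2 or 3, hcRED replicate 1 or Mock replicate 3. Without BRSK2 replicate 1 the 1 call was TLN1 (lower), not TNC. Leaving out libraries gave 0 calls throughout for BRSK1, BRSK2 against BRSK1, and hcRED against Mock. With the replicate block the count for hcRED against Mock went from 0 to 1 (TLN1 lower, log2 difference -0.36, adjusted p = 0.00692), with no other change of a call among the 10 genes. Whether the replicate numbers pair the samples was not settled. Deviations from the group means of same-numbered BRSK1 and BRSK2 libraries correlated at 0.161, 0.000351 and 0.0194. Other same-numbered pairs lay between -0.0511 (BRSK2 and Mock replicates 3) and 0.14 (BRSK1 and Mock replicates 2). Differently numbered pairs lay between -0.14 and 0.1. The block raised the calls over all genes from 1089 to 1999 (BRSK1), from 59 to 267 (BRSK2 against BRSK1) and from 5 to 434 (hcRED against Mock), and the list calls with BRSK1 to 16 higher and 17 lower. Without the filter those were 12 higher and 10 lower. Over all genes, BRSK1 calls ran from 133 (hcRED alone) to 1999, with 204 without BRSK1 replicate 3 and 1751 without BRSK2 replicate 1. BRSK2 calls, 1325 at first, ran from 346 without BRSK2 replicate 3 to 2211 without BRSK2 replicate 1 and 3001 with library totals. The cause of these changes was not tested. TNC had 41 to 83 counts per library.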
